A study of Mus musculus with 9 samples.

Results

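The E2F transcription factors are a family of 8 genes in the mouse, E2f1 to E2f8, and all 8 were found by symbol among the 51912 genes of the deposited table. E2F proteins bind DNA at the promoters of genes needed for DNA synthesis and mitosis. In resting cells the pocket proteins (RB and its relatives) hold E2F1, E2F2 and E2F3 inactive. Cyclin-dependent kinases release these E2F proteins by phosphorylating the pocket proteins when a cell enters the cycle. E2F1, E2F2 and E2F3 are described as activators, E2F4 and E2F5 as pocket protein-dependent repressors, E2F6 as a repressor that works with Polycomb proteins, and E2F7 and E2F8 as atypical repressors that bind DNA without a DP partner and limit E2F target genes late in S phase. Pre-cDCs, the precursors of conventional dendritic cells (cDCs), arise in BM, still divide, and travel through blood to tissues such as the spleen.

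The study compared pre-cDCs with and without DNGR-1, the dead cell receptor encoded by Clec9a, by bulk RNA-seq of total RNA depleted of ribosomal RNA. BM gave 6 samples, 3 per genotype, and spleen gave 3, of which 1 was WT and 2 were DNGR-1 KO. All came from mixed BM chimeras, in which lethally irradiated BL/6 CD45.1/2 hosts received BM in equal parts from WT donors, which were BL/6 mice of the CD45.1 type, and from CD45.2 donors with the Clec9aCre/Cre genotype (DNGR-1 KO), without further treatment, and mice in the study were 6 to 12 wk old at the start. Each sample held sorted cells pooled from 2 mice. The KO allele is a Cre knock-in at Clec9a carried in every cell of that donor, so KO cells also carry Cre. WT and KO cells further differ at the CD45 congenic interval, and KO and WT cells of a host share the same environment. For WT the labels disagree on the CD45 type (CD45.1 as source, CD45.2 as description), and the methods give CD45.1. By the study's account 6 mice were used in all, so that WT and KO samples may share hosts, but no source used here says which samples or which sample numbers do, and p-values measure the spread between these samples.

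Totals were 17103806 to 23722298 counts per sample, so that 3 counts, the floor used here for a gene not detected, correspond to 0.126 to 0.175 CPM (read counts scaled to a common library size by TMM). Clec9a had 905, 1574 and 1766 counts in WT BM, 1 count in each KO BM sample, 2459 in WT spleen and 0 in both KO spleen samples. The 9 pre-cDC markers were above the floor in every spleen sample, and their summed level was 1975 to 4200 CPM in spleen against 2758 to 5132 CPM in BM. Between tissues 1 of the 9, Irf8, was called lower in spleen (log2 difference -1.36, edgeR adjusted p = 0.0204) and 0 were called higher. Markers of other cells differed between tissues. T and NK cell markers summed to 1341 to 4454 CPM in spleen and 65.5 to 156 CPM in BM (9 of 10 called higher in spleen), macrophage markers to 175 to 525 and 8.14 to 20.9 CPM (4 of 6 higher), erythroid markers to 3098 to 18157 and 56.3 to 561 CPM (2 of 5 higher, the hemoglobin genes, and 2 lower), and neutrophil markers to 0 to 0.886 and 830 to 2569 CPM (5 of 6 lower). B cell markers summed to 34.6 to 46.6 CPM in spleen and 37.6 to 58.4 CPM in BM, most of it Cd79b (37.0 CPM in WT spleen). Of the 5, 3 were tested and 1 was called higher in spleen. That was Ms4a1, with 0 counts in WT spleen, 213 and 222 in KO spleen, and 0 or 1 in BM. Plasmacytoid DC markers summed to 428 to 946 and 566 to 856 CPM, with 0 of 5 called. Each of the T cell genes Cd3e and Cd3g was at 0 counts in all WT BM samples and had 955 to 11155 counts in the spleen samples. Ly6g and Elane, genes of neutrophils and their precursors, were at 0 in every spleen sample. Elane had 362 to 2703 counts in BM, but Ly6g had only 0 to 19 there and was not called between tissues (edgeR adjusted p = 0.202). The part of these cells in the differences between tissues below was not tested. Genes well counted in BM could be at the floor in a spleen sample: among 8472 genes with at least 100 counts in all 6 BM samples, 628 (7.41%) were at 3 counts or fewer in WT spleen, 289 (3.41%) in KO spleen sample 1 and 301 (3.55%) in KO spleen sample 2. Of the 7 E2F genes with that depth in BM, 4 were at the floor in WT spleen, 1 in KO spleen sample 1 and 3 in KO spleen sample 2. The 4 Y-linked genes Ddx3y, Eif2s3y, Kdm5d and Uty summed to 0, 0 and 1 counts in WT BM, 341, 9 and 0 in KO BM, 0 in WT spleen, and 1193 and 1807 in KO spleen, so donor sex and genotype cannot be told apart in spleen.

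RefSeq promoter windows, from 250 bases before to 50 bases after a start site on GRCm38.p6, were given for 6 of the 8 genes. E2f2, E2f3, E2f7 and E2f8 are shown because they are the members whose window held an E2F core motif, and because E2f7 and E2f8 had the lowest fitted values in spleen. Capitals mark, on either strand, an E2F core (TTCCCGC or TTGGCGC or TTCGCGC or TTGCCGC), a CHR element (TTTGAA) or a CCAAT box (CCAAT).
E2f7, chr10:110745189-110745488, plus strand: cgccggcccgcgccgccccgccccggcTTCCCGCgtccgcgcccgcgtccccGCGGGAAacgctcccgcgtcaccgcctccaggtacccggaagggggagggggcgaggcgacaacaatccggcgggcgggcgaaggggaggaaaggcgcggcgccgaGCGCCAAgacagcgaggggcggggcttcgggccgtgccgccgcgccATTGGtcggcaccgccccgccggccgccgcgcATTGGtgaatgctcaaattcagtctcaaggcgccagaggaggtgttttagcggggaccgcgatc
E2f8, chr7:48881547-48881846, minus strand: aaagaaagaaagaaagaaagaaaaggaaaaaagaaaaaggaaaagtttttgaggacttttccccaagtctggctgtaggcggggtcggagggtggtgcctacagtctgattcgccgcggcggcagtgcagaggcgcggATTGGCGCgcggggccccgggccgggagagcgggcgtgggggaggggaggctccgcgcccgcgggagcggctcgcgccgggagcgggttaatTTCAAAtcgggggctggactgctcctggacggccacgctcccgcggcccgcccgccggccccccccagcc
E2f3, chr13:29986014-29986313, minus strand: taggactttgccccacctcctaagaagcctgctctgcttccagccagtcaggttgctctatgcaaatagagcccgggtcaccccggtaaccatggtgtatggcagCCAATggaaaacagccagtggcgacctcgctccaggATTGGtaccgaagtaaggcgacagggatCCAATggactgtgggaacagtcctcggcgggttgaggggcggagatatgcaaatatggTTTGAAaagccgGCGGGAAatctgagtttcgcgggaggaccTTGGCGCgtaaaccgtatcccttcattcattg
E2f2, chr4:136172024-136172323, plus strand: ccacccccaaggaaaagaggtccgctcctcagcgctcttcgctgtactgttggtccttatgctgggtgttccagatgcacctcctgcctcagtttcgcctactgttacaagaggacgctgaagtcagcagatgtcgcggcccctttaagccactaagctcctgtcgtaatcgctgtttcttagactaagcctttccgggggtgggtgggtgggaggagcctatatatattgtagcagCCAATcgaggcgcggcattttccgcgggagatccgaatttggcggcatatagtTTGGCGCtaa
The E2f7 window held 3 E2F cores, that of E2f3 held 2, and those of E2f8 and E2f2 held 1 each. In the E2f8 window the E2F core and a reversed CCAAT box run into each other as ATTGGCGC, and a reversed CHR element lies closer to the start. The window of E2f6 held no such core, and neither did windows at a start inside the gene, which was the one window given for E2f1 and a second window for E2f2 and E2f3. The bases before the annotated 5′ end of E2f1 were thus not searched. Of all 32851 mouse windows, 9.57% held an E2F core, 17.9% a CHR element and 37.4% a CCAAT box. A match describes letters and is not evidence of binding.

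In BM, where every E2F gene was detected in all 6 samples, levels were compared after dividing CPM by the kilobases of exon of each gene (GENCODE M21). E2f8 had the highest mean at 19.8 ± 5.10 CPM per kb (SD, n = 6), followed by E2f4 at 14.3 ± 5.07. Then came E2f2 at 6.25 ± 1.53, E2f1 at 4.88 ± 0.718 and E2f7 at 4.06 ± 1.01 CPM per kb, and the lowest were E2f3 at 2.504 ± 0.577, E2f6 at 2.34 ± 0.825 and E2f5 at 1.13 ± 0.596. Neighbours in this order were close: E2f8 exceeded E2f4 in 5 of 6 samples, E2f2 exceeded E2f1 in 4 of 6, and E2f3 exceeded E2f6 in 3 of 6, whereas E2f4 exceeded E2f2, and E2f7 exceeded E2f3, in all 6. The atypical repressors E2f7 and E2f8 together made up 25.3% to 51.8% of the summed CPM per kb of the family in BM, the activators E2f1 to E2f3 21.2% to 29.6%, E2f4 with E2f5 19.0% to 44.9%, and E2f6 2.95% to 6.84%. The lowest share of the atypical pair and the highest of E2f4 with E2f5 were both in WT BM sample 1, which also had the lowest sum of pre-cDC markers in BM (2758 CPM) and the highest sum of erythroid markers (561 CPM).

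**Figure D1:**
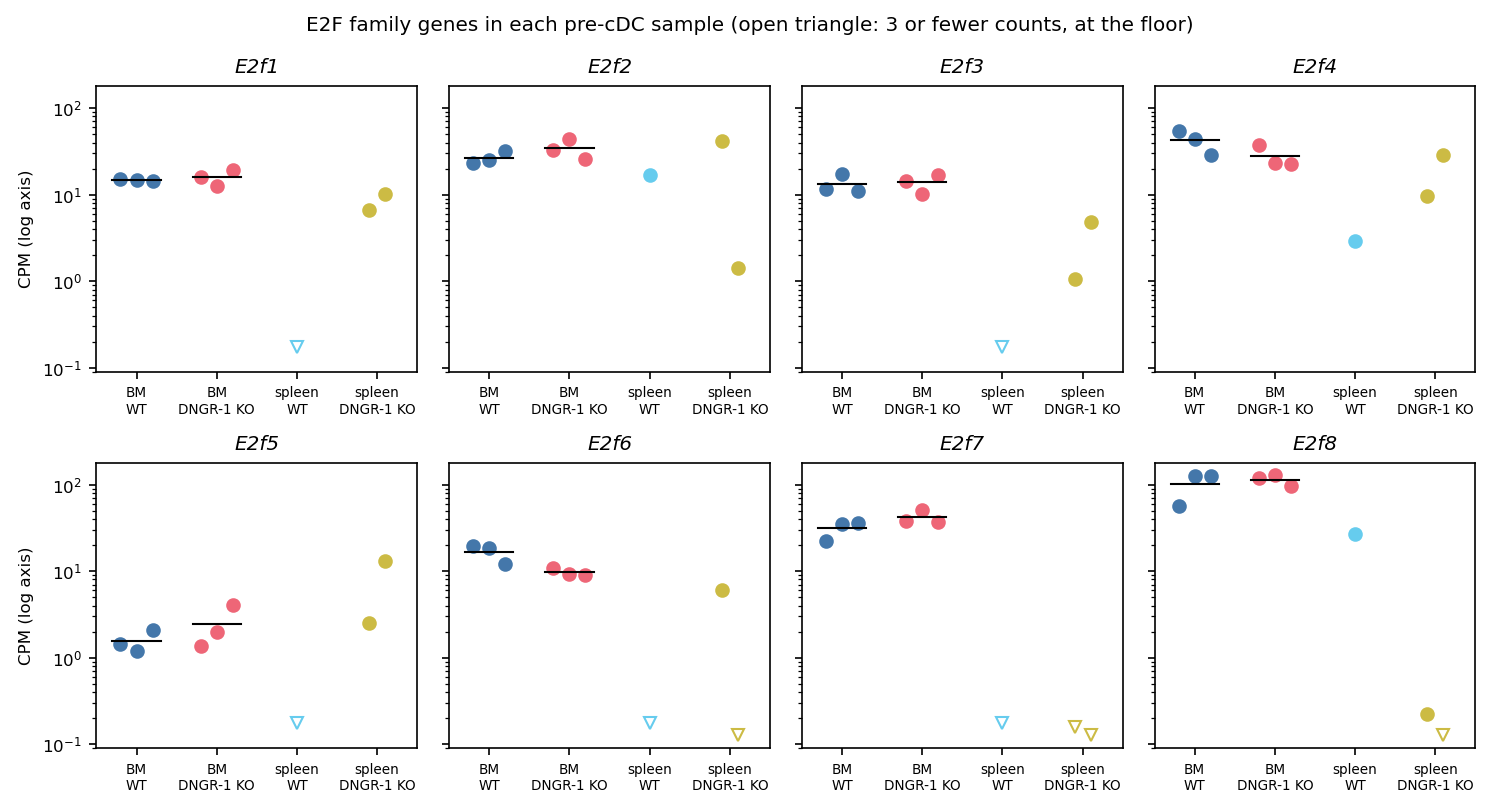
CPM (log axis) of each E2F gene in the 9 pre-cDC samples, 1 point per sample, with a black line at the mean of the groups of 3. Open triangles are samples with 3 counts or fewer, drawn at the floor. For E2f1, E2f3, E2f6, E2f7 and E2f8 every spleen sample lies below every BM sample, with E2f7 at the floor in all 3. For E2f2, E2f4 and E2f5 the tissues overlap, and E2f5 in KO spleen sample 2 lies above every BM sample.

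The comparison of spleen with BM addressed how the family differs between the site where pre-cDCs arise and a tissue they settle in. E2f7, an atypical repressor, was the one member that passed the test, and it was not detected in spleen. E2f8 was near the floor in both KO spleen samples but not in the WT spleen sample, and 3 other members, E2f1, E2f3 and E2f6, were lower in all 3 spleen samples than in any BM sample without passing the test. Across the 15813 genes tested, 15.7% were called at an adjusted p under 0.05 (edgeR quasi-likelihood test with genotype as a covariate, Benjamini-Hochberg), 5.98% higher and 9.7% lower in spleen, and 1 of 8 E2F genes was called. All 8 passed the filter on low counts. The median log2 difference was -2.46 over the 8 genes and -0.21 over all genes tested. In 5 members, E2f1, E2f3, E2f6, E2f7 and E2f8, every spleen sample was below every BM sample, as in 16.1% of all genes tested, and in 0 members every spleen sample was above, as in 7.77%. In a bulk sample, fewer cells of a type and less RNA per cell cannot be told apart.

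Among the atypical repressors, E2f7 (ENSMUSG00000020185, chr10:110745439-110787384) had 372, 671 and 709 counts in WT BM, 847, 1037 and 742 in KO BM, and 0 in WT spleen and in both KO spleen samples. Every spleen sample was thus below every BM sample. The BM mean of 36.6 CPM was at least 206-fold higher than the highest TMM-scaled floor of 3 counts in a spleen library. The fitted log2 difference was -12.57 (SE 0.75, adjusted p = 9.12e-05), a value that depends on the prior count because the spleen samples are at 0, and E2f7 passed the filter through BM alone. With the WT spleen sample left out the adjusted p was 1.60e-04, and within the DNGR-1 KO samples it was 0.00451.

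E2f8 (chr7:48866429-48881596, minus strand), the other atypical repressor, had 950, 2422 and 2435 counts in WT BM and 2614, 2596 and 1908 in KO BM, against 448 in WT spleen and 4 and 2 in KO spleen. WT spleen stood below the lowest BM sample, at 26.6 against 56.7 CPM, and KO spleen far below both. The log2 difference between tissues was -4.61 (SE 1.49, adjusted p = 0.0654) and did not pass the test. It was called when the WT spleen sample was left out (-9.53, SE 0.65, adjusted p = 1.33e-04) and by DESeq2 on all samples (-4.76, adjusted p = 1.08e-04). Exons of E2f8 share 610 bases with Gm2788 on the other strand, which had 0 to 197 counts.

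Of the activators, E2f1 (chr2:154559407-154569892, minus strand), which also drives apoptosis genes when in excess, had 252, 288 and 284 counts in WT BM, 355, 254 and 386 in KO BM, 0 in WT spleen, and 118 and 238 in KO spleen. The BM samples lay within 12.5 to 19.3 CPM, and the KO spleen samples lay under them, at 6.56 and 10.05 CPM. The log2 difference was -2.07 (SE 1.27, adjusted p = 0.287).

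E2f3 (chr13:29906575-29986063, minus strand), an activator also expressed as a shorter isoform, had 195, 336 and 217 counts in WT BM, 319, 205 and 338 in KO BM, 0 in WT spleen, and 19 and 113 in KO spleen. Its highest spleen sample had 4.77 CPM and its lowest BM sample 10.1 CPM. The log2 difference was -3.33 (SE 1.28, adjusted p = 0.107), and without KO spleen sample 2 it was called at -4.99 (adjusted p = 0.0230).

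E2f2 (chr4:136172394-136196057), the third activator, had 389, 489 and 624 counts in WT BM, 732, 889 and 519 in KO BM, 286 in WT spleen, and 755 and 34 in KO spleen. KO spleen sample 1 lay inside the BM range at 41.9 CPM. KO spleen sample 2, at 1.44 CPM, and the WT spleen sample lay under it. The log2 difference of -0.66 (SE 0.75, adjusted p = 0.587) was smaller than its error.

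E2f4 (chr8:105297663-105305370), the repressor that works with pocket proteins in resting cells, had 904, 847 and 567 counts in WT BM, 828, 477 and 448 in KO BM, 49 in WT spleen, and 174 and 681 in KO spleen. KO spleen sample 2 lay inside the BM range at 28.7 CPM, and the other spleen samples lay under it. The log2 difference was -1.42 (SE 0.74, adjusted p = 0.21), and without KO spleen sample 2 it was called at -2.44 (adjusted p = 0.0279).

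E2f5 (chr3:14578641-14606309), the close relative of E2f4, was the one member with a fitted value above 0 in spleen. It had 24, 23 and 41 counts in WT BM, 30, 40 and 81 in KO BM, 0 in WT spleen, and 45 and 306 in KO spleen. The groups overlapped, and the log2 difference of 0.51 (SE 1.55, adjusted p = 0.857) became -1.40 without KO spleen sample 2 and -0.16 without KO BM sample 1. Its exons share 26 bases with 1810022K09Rik on the other strand, which had 1105 to 2969 counts. Whether the counting used strand is not given in the sources used here, so reads of such pairs cannot be told apart.

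E2f6 (chr12:16810963-16839742), the Polycomb-linked repressor, had 330, 356 and 235 counts in WT BM, 241, 191 and 179 in KO BM, 0 in WT spleen, and 108 and 0 in KO spleen. Only KO spleen sample 1 had reads, at 6.00 CPM under a BM minimum of 8.97. The log2 difference of -2.84 (SE 1.79, adjusted p = 0.302) was called at -10.97 (adjusted p = 5.12e-04) without that sample.

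An exact permutation test of log2 CPM (prior count 2, two-sided) has 84 arrangements of the 9 samples, which allow no p under 0.0119. It gave that smallest p for E2f1, E2f3, E2f6, E2f7 and E2f8. In these members every spleen sample was below every BM sample, so the p restates that lack of overlap and adds no further support. Among all genes tested, 16.1% lay all lower in spleen and 7.77% all higher. The same exact test gave p = 0.0357 for E2f4, p = 0.107 for E2f2 and p = 0.762 for E2f5, all unadjusted. By limma-voom E2f3, E2f6 and E2f8 were called along with E2f7, beside 3402 of all 15813 genes tested.

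**Figure D2:**
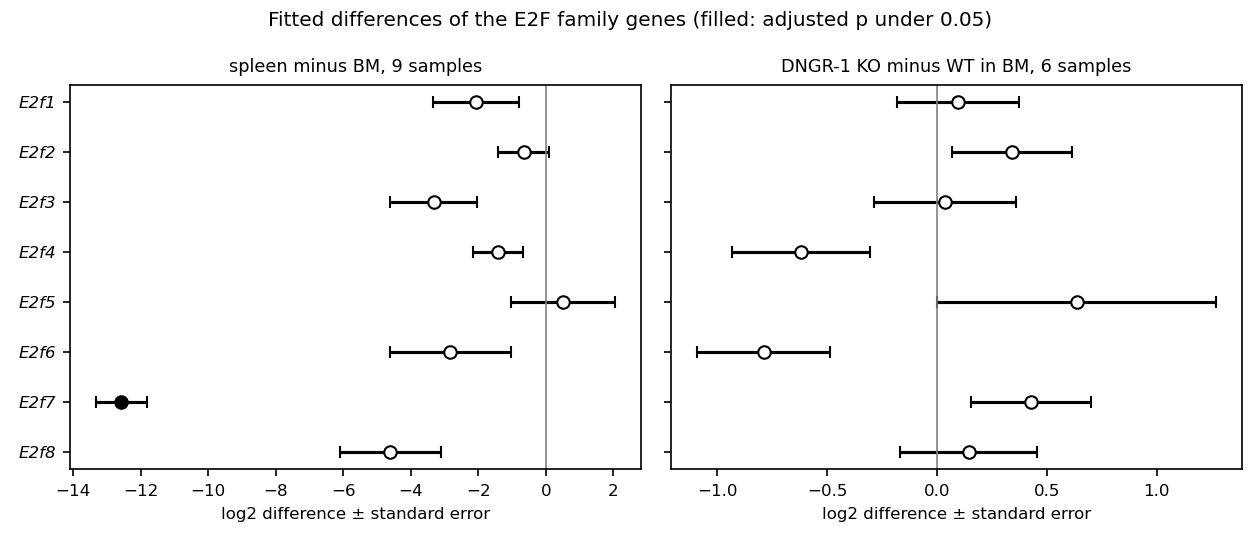
Fitted log2 differences of the 8 E2F genes (points) with standard errors (bars), for spleen minus BM over 9 samples and for DNGR-1 KO minus WT over the 6 BM samples, on separate horizontal scales. Filled points passed an adjusted p of 0.05, which E2f7 alone did in the comparison of tissues and no gene did in BM.

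The makeup of the family differed among the spleen samples. The summed level of the 8 genes was 49.3 to 61.9 CPM per kb in BM, and 9.54 in WT spleen, 17.3 in KO spleen sample 1 and 23.3 in KO spleen sample 2. E2f7 and E2f8 held 51.2% of that sum in WT spleen, all of it from E2f8, but 0.236% and 0.0664% in the KO spleen samples. The activators held 36.4% in WT spleen, 62.8% in KO spleen sample 1, where E2f2 was at 8.59 CPM per kb, and 18.7% in KO spleen sample 2. E2f4 with E2f5 held 12.4%, 30.9% and 81.3% of it in the same order. By mean level per kb in spleen E2f4 came first and E2f2 next, and E2f7 last at 0, but with each gene's lowest and highest spleen samples so far apart (E2f4 at 1.185 to 11.7, E2f2 at 0.294 to 8.59, E2f5 at 0 to 7.25 CPM per kb) the neighbours in that order did not differ beyond their spread.

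**Figure D3:**
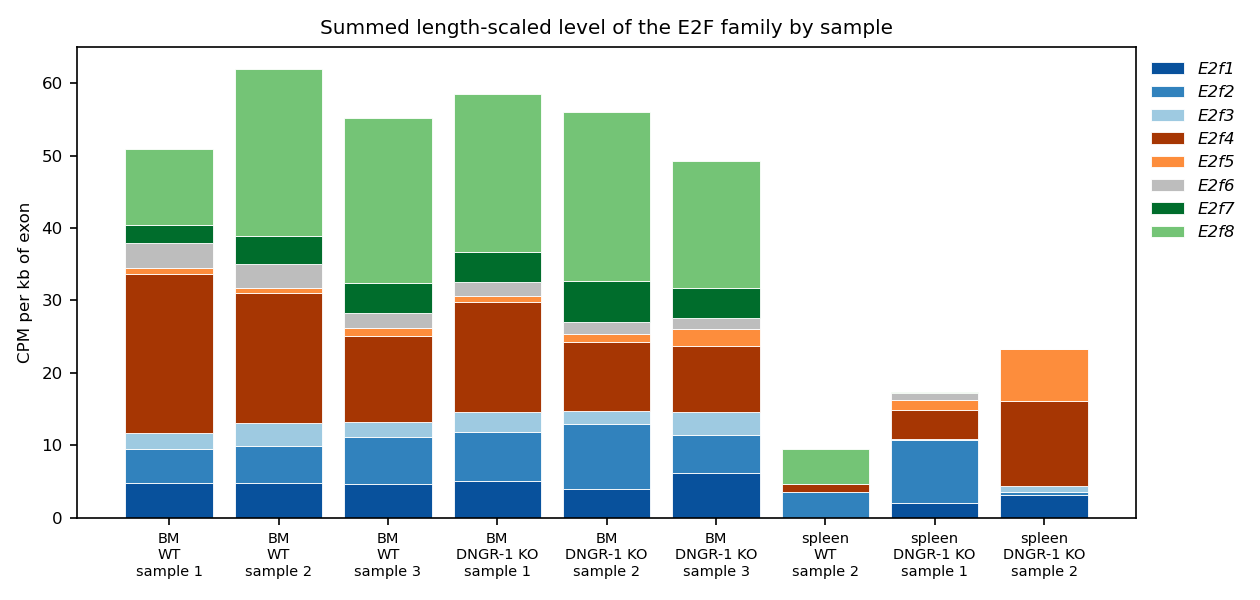
CPM per kb of exon of the 8 E2F genes stacked for each of the 9 pre-cDC samples, blue for activators, brown and orange for E2f4 and E2f5, grey for E2f6 and green for E2f7 and E2f8. The 6 BM bars reach 49.3 to 61.9 with all 8 genes visible, and the 3 spleen bars reach 9.54, 17.3 and 23.3 with different genes leading in each.

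In BM, the comparison of DNGR-1 KO with WT asked whether loss of the receptor moved these genes in pre-cDCs at their origin. None of the 8 E2F genes was called, against 0.0307% of the 13016 genes tested, 0.0154% higher and 0.0154% lower in KO (4 genes in all, 498 at an unadjusted p under 0.05; edgeR), and DESeq2 and limma-voom called 0 members as well. E2f6 was the member with the lowest unadjusted edgeR p, 0.0267, and the one with an unadjusted p under 0.05. Its KO samples, at 10.9, 9.37 and 8.97 CPM, all lay under the WT samples, at 19.7, 18.5 and 12.02 CPM (log2 difference -0.79, SE 0.30, adjusted p = 0.861). E2f7 went the other way, with KO samples at 38.3, 50.9 and 37.2 CPM all above WT samples at 22.2, 34.8 and 36.3 CPM (0.43, SE 0.27, adjusted p = 0.861), though the closest KO and WT samples were near each other. Among all genes tested, 4.93% had KO samples all above and 4.66% all below WT. With 3 against 3 samples an exact permutation test cannot go under p = 0.1. E2f6 and E2f7 both reached that value, which follows from their lack of overlap.

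The remaining members overlapped between the genotypes in BM. E2f4 was at 54.0, 43.9 and 29.0 CPM in WT and 37.4, 23.4 and 22.4 CPM in KO BM (log2 difference -0.62, SE 0.31, adjusted p = 0.861), and E2f2 at 23.2, 25.3 and 31.9 CPM in WT and 33.1, 43.6 and 26.0 CPM in KO (0.34, SE 0.27, adjusted p = 0.861). E2f8 had a log2 difference of 0.14 (SE 0.31, adjusted p = 0.939), which became -0.14 without WT BM sample 1, the lowest of the 6. E2f1 (0.10, SE 0.28) and E2f3 (0.04, SE 0.32) had differences under their errors that changed sign when single samples were left out. E2f5, the least abundant, had 0.64 (SE 0.63, adjusted p = 0.871). The activators held 21.2% to 23.9% of the family sum in WT BM and 24.85% to 29.6% in KO BM, shares that did not overlap. The share of E2f6 did not overlap either, at 3.84% to 6.84% in WT and 2.95% to 3.29% in KO BM. Those of E2f4 with E2f5 and of E2f7 with E2f8 overlapped. These shares depend on each other and were not tested.

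In spleen the genotypes rest on 1 WT sample against 2 KO samples, with no replicate check and no p. E2f1, E2f3, E2f4 and E2f5 were at least 2-fold higher in both KO samples than in the WT sample, that is 4 of 8 genes. Of the 13218 genes that passed the filter on low counts in spleen, 15.8% were. E2f1, E2f3 and E2f5, at 0 in the WT sample, passed that filter only through the KO samples where they are high. E2f7, at 0 in all 3 spleen samples, did not pass it, so the 8 are not all among the 13218. With the floor of 3 counts per library standing for the WT sample at 0, E2f1 was at least 36.9-fold and at least 56.5-fold higher in the 2 KO samples, E2f3 at least 5.93-fold and at least 26.8-fold, and E2f5 at least 14.1-fold and at least 72.6-fold. E2f4, detected in all 3, was 3.33-fold and 9.89-fold higher. E2f8 went the other way, at 26.6 CPM in WT spleen and 0.222 and 0.0844 CPM in KO spleen, while 9.24% of all these genes were at least 2-fold lower in both KO samples. The KO samples disagreed on 2 genes: E2f2 was 2.47-fold the WT level in sample 1 and 0.0846-fold in sample 2, and E2f6 was at least 33.7-fold higher in sample 1 and at 0 in sample 2. E2f7 was at 0 throughout, so no fold can be given. Markers of other cells also differed among WT spleen, KO spleen sample 1 and KO spleen sample 2. In that order T and NK cell markers summed to 1341, 1574 and 4454 CPM and macrophage markers to 175, 196 and 525 CPM. Erythroid markers summed to 3098, 18157 and 5897 CPM, and plasmacytoid DC markers, lower in KO, to 946, 573 and 428 CPM. The part of these cells in the spleen genotype values was not tested.

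A test of whether the genotype difference itself differed between tissues has the same single WT spleen library as 1 arm, with no replicate of its own and a spread assumed to be that of the other groups, so its p-values do not replace a replicate check in spleen. It called 7.01% of all 15813 genes (edgeR), 5.64% with a value above 0 and 1.37% below, and 4 of 8 members, 3 above and 1 below. These were E2f1 (log2 interaction 10.2, adjusted p = 0.00294), E2f3 (8.80, adjusted p = 0.0268) and E2f5 (9.60, adjusted p = 0.0442), higher in KO relative to WT in spleen, and E2f8 (-7.60, adjusted p = 0.0016), lower. The first 3 values depend on the prior count since the WT spleen sample is at 0. With limma-voom no member was called, and 0 genes overall (2968 at an unadjusted p under 0.05; 3134 by edgeR and 3652 by DESeq2, which called 2233). The calls for E2f3 and E2f5 were also lost when single BM samples were left out, with adjusted p of 0.0507 to 0.0612 for E2f3 and 0.0552 to 0.0893 for E2f5.

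Some partners and regulators of E2F proteins fell in spleen, and none of those listed rose, beside 9.7% of all genes tested that were called lower and 5.98% called higher. Of the DP partners, which pair with E2F1 to E2F6 on DNA, Tfdp1 fell in spleen, with 2098 to 3359 counts in BM and 443, 730 and 990 in spleen (log2 difference -1.96, SE 0.20, adjusted p = 3.64e-04), whereas Tfdp2, with 278, 1030 and 615 counts in spleen, did not pass the test (-0.29, adjusted p = 0.70). None of the 3 pocket proteins passed it: Rb1 had a log2 difference of 0.74 (adjusted p = 0.418), Rbl1 of -1.19 (adjusted p = 0.106) and Rbl2 of 1.03 (adjusted p = 0.2). Rbl2, which encodes p130, the pocket protein of resting cells, had 4784 counts in KO spleen sample 2 and 462 and 987 in the other spleen samples. All 3 pocket genes and both DP genes were above the floor in every spleen sample.

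Of the MuvB core, which joins E2F4 and p130 in the DREAM repressor, and its activators, 2 of 7 fell and 0 rose (median -2.09). Mybl2, the B-MYB activator, had 481 to 653 counts in BM and 47, 1 and 0 in spleen (-5.65, adjusted p = 0.0180), and Rbbp4, a histone-binding subunit, also fell (-1.01, adjusted p = 0.0114). In the fit with a replicate block, 0 of these 7 were called. Of the 10 genes of the Polycomb-related E2F6 complex, 3 fell (median -0.58), among them Wdr5 (-1.73, adjusted p = 0.00516) and L3mbtl2 (-1.74, adjusted p = 0.0187). Rnf2 and Ring1, its ubiquitin ligases, did not pass the test (0.43 and 0.39). Of 13 upstream cyclins, kinases and inhibitors 4 fell (median -0.47). Cdk4, a kinase that phosphorylates pocket proteins, had 10723 to 14925 counts in BM and 3662 to 4451 in spleen (-1.59, adjusted p = 0.00113), and Cdk2, which acts after it, fell by 2.17 on the log2 scale (adjusted p = 0.00554). The kinase inhibitors Cdkn1b (0.69, adjusted p = 0.113) and Cdkn2c (0.78, adjusted p = 0.182) did not pass the test.

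Most of the replication and mitotic genes that E2F proteins are known to regulate fell in spleen. Of 30 G1/S targets, the replication genes, 23 fell and 0 rose, with a median log2 difference of -2.91 beside -0.21 over all genes tested. Mcm7 and Mcm5, subunits of the replicative helicase, fell from 10629 to 15076 counts in BM to 1585, 2267 and 2471 in spleen, and from 7685 to 12878 to 1235, 1338 and 2649 (-2.52 and -2.64, adjusted p = 5.30e-05 and 6.66e-05). Of 20 G2/M targets, the mitotic genes bound by DREAM, 19 fell and 0 rose (median -5.45). Ccnb1, the mitotic cyclin, had 7719 to 10956 counts in BM and 121, 165 and 133 in spleen (-6.07, adjusted p = 8.65e-06), and Cenpf, a kinetochore protein, had 1584 to 2801 counts in BM and 0, 1 and 0 in spleen (-12.26, adjusted p = 8.65e-06, a fitted value that depends on the prior count). These counts were 24 of 30 and 19 of 20 without the WT spleen sample, 20 of 30 and 15 of 20 within the KO samples, where fewer samples entered, and 19 of 30 and 15 of 20 with a replicate block.

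Of 5 genes that degrade or time E2F proteins, 3 fell (median -2.76). Ccnf, the F-box protein cyclin F, which marks E2F1, E2F7 and E2F8 for degradation, had 2017 to 5232 counts in BM and 1, 2 and 5 in spleen (-10.66, adjusted p = 8.65e-06), and Fbxo5, an inhibitor of the anaphase-promoting complex, fell by 2.76 (adjusted p = 0.00137). The apoptosis genes attributed to E2F1 had calls in both directions: of 6 tested of 7 listed, Pmaip1, which encodes NOXA, rose (1.68, adjusted p = 0.0486), 1 gene fell, and 4 did not pass the test (median of the 6, -0.16). Bbc3, which encodes PUMA, had 10 or more counts in all samples but KO spleen sample 1 and a log2 difference of 1.02 (adjusted p = 0.53).

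In BM, DNGR-1 KO and WT had 0 calls in every one of these lists. The median log2 difference was 0.04 over the G1/S targets, 0.14 over the G2/M targets and 0.40 over the pocket proteins, beside -0.0045 over all genes tested, and the lowest adjusted p in any list was 0.861. Pmaip1 had the highest value among the genes named here, with 211, 712 and 656 counts in WT BM and 848, 1356 and 1166 in KO BM (0.97, SE 0.40, adjusted p = 0.861).

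**Figure D4:**
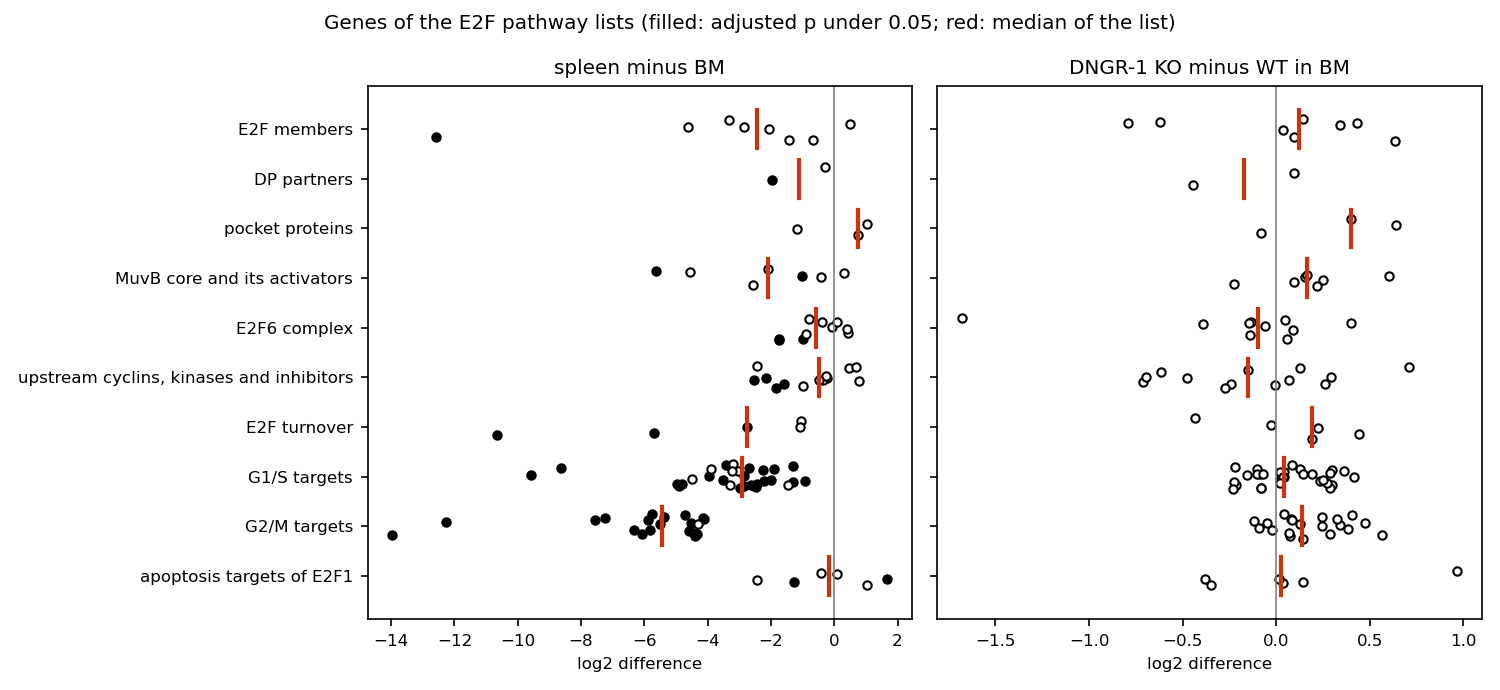
Log2 differences of single genes (points) in the E2F family and 9 lists of its pathway, for spleen minus BM and for DNGR-1 KO minus WT in BM, on separate horizontal scales, with the median of each list as a red line. Filled points passed an adjusted p of 0.05: 23 of 30 G1/S targets and 19 of 20 G2/M targets lay below 0 and passed between tissues, and none passed between genotypes in BM.

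For each member, the 3 other genes with the highest Pearson r of log2 CPM over the 9 samples were looked up among the 15813 genes tested. All points share the tissue and the libraries, so that a gene at 0 in the same spleen samples ranks high. E2f7 was most like Fam83d (r = 0.999), Ska3 (0.999) and Bub1 (0.999), which were likewise at 0 in all 3 spleen samples. E2f8 was most like Arhgap33 (0.997), Fancd2 (0.996), a gene of DNA crosslink repair, and D430020J02Rik (0.995), each detected in WT spleen and at 0 or 1 count in KO spleen. E2f1 was most like Pip4p2 (0.998), Brf2 (0.997) and Suz12 (0.996), all at 0 or 1 count in WT spleen, and E2f6 was most like Ash2l (0.998), Zbtb37 (0.996) and Dyrk3 (0.995), with reads in KO spleen sample 1 and at most 2 counts in the other spleen samples. The nearest gene was Cgas for E2f2 (0.993), Wdsub1 for E2f3 (0.993), Eral1 for E2f4 (0.979) and Snx9 for E2f5 (0.976).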

How the data were processed

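Bulk RNA-seq of pre-cDCs from 9 samples was analysed from the table of expected counts (RSEM estimates, not normalized) that the authors deposited for 51912 genes. The submitters' processing notes name Trimmomatic 0.36, STAR 2.5.2, RSEM 1.3.0, DESeq2 1.18.1, R 3.4.3 and GRCm38. The annotation and the use of strand are not given in the sources used here. Of the nonzero values 25.6% were not whole, and all were rounded. The deposited table of variance-stabilized values was not used. Symbols, coordinates and exon lengths came from GENCODE M21 of GRCm38 (51633 identifiers matched), which may differ from the authors' annotation, and promoters from RefSeq.

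Groups followed the labels. Tests used R 4.3.3 and edgeR 4.0.16 (filterByExpr, TMM, quasi-likelihood, Benjamini-Hochberg over all genes tested, threshold 0.05), tissues over 9 samples with genotype as a covariate, genotypes over 6 BM samples, and the interaction over 4 group means. Standard errors came from the F statistic. CPM are TMM-scaled. The floor of 3 counts covers counting error only. DESeq2 1.42.0, limma 3.58.1 (voom), other filters and scalings, a replicate block, the congenic score and each sample left out were alternatives. Scaling by the total count was added after seeing the data. The scripts were tested on simulated data.

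The members, the lists and the tests were chosen with earlier results of these data known. Named genes are the 8 members, all DP partners and pocket proteins, from each other list the 2 lowest adjusted p in each direction between tissues, and for each member the 3 genes most like it. Some genes that this rule names are not reported here.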

Additional observations from a re-analysis of the deposited data

Results flagged for a closer look

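By the interaction test of edgeR, in which spleen has 1 WT library, 4 E2F genes were called for a genotype difference that differs between spleen and BM: E2f1 with a log2 interaction of 10.2, E2f3 with 8.80, E2f5 with 9.60 and E2f8 with -7.60. By limma-voom none of the 4 was called, nor any other gene. E2f1, E2f3 and E2f5 were at 0 counts in WT spleen with reads in both KO spleen samples, and E2f8 had 448 counts in WT spleen but 4 and 2 in KO spleen. In that WT spleen sample, 509 of 8389 genes with at least 100 counts in both KO spleen samples (6.07%) were at 3 counts or fewer, against 149 of 7757 (1.92%) and 140 of 7691 (1.82%) for the KO spleen samples by the same measure, and 0% to 0.0862% in BM. The measure for the WT spleen sample takes in E2f1, with 118 and 238 counts in KO spleen. It leaves out E2f3 (19 and 113), E2f5 (45 and 306) and E2f8 (4 and 2). The part of such loss in the values of E2f1, E2f3 and E2f5 was not tested.

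Among the 6 BM samples, E2f5 was highest in DNGR-1 KO sample 3, at 4.06 CPM (81 counts), and the gap to the next sample was 0.684 of the whole range, above the limit of 0.625 for 6 samples. All 8 E2F genes were looked at in this way, and chance flags about 1 in 20 groups.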

How the results depend on the processing

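Of 472 values under alternatives, 389 kept their direction and their side of the threshold or, for counts, stayed within 1.5 times the count reported. E2f7 stayed called lower in spleen wherever it was tested, at log2 values of -12.77 to -10.50, and was not tested with at least 10 counts required in every sample, where 2 members were. No member was called between genotypes in BM under any alternative. Between tissues 2479 genes were called, with 4094 by DESeq2, 3402 by limma-voom and 1004 with the replicate block. Without a filter 2427 of 21524 genes were called, and with at least 10 counts in every sample 1762 of 8579. Between tissues within the DNGR-1 KO samples 1336 were called, and 1584 to 3118 with single samples left out. Calls of E2F genes there were 1, with 3 by DESeq2, 4 by limma-voom, 2 without a filter, 0 with at least 10 counts in every sample, 2 within the KO samples, 2 without the WT spleen sample, and 1 to 3 with single samples left out. That stricter filter lowered the share of lower calls to 44.55%, from 57.93% to 66.34% by the other tools, filters and scalings. The median of all genes moved by 0.11 within the KO samples, by 0.12 without WT spleen, and in the interaction by -0.13 with limma-voom. In BM 4 genes were called, with 11 by DESeq2, 10 without a filter and 2 to 15 with single samples left out, 15 of them without KO sample 1. The interaction called 1108 genes and 4 members, with 2233 and 6 by DESeq2, 0 and 0 by limma-voom, 167 and 0 with at least 10 counts, and 767 to 2677 genes and 2 to 6 members with single samples left out, the most without KO spleen sample 1. In spleen, the 4 members at least 2-fold higher in KO were 4 under both other scalings, and 4 to 6 with 1 KO sample alone.

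Signs changed in values not past the threshold: E2f5 between tissues was -0.56 by limma-voom, -0.16 without KO BM sample 1 and -1.40 without KO spleen sample 2, within -1.40 to 1.66 over all samples left out. In BM, E2f3 was -0.0046 by total-count scaling, -0.05 without WT sample 1, -0.08 without WT sample 3 and -0.14 without KO sample 3 (up to 0.27 without others), E2f8 was -0.14 without WT sample 1 (up to 0.32), and E2f1 was -0.068 without KO sample 3 (up to 0.26). The interaction of E2f2, 0.0015 in the edgeR fit, was -0.010 by DESeq2, -0.011 with median-of-ratios scaling, -1.65 by limma-voom, -0.0028 without a filter, -0.033 by total-count scaling, and -3.91 to 0.96 with single samples left out. The lowest, without KO spleen sample 1, was called (adjusted p = 0.00215). The causes were not tested.

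Same-numbered WT and KO BM samples had correlations of 0.105, 0.0981 and -0.0799 in their deviations from the group means, so the numbers were not taken as pairs, and not every sample correlated best with its own number. With the replicate block, 1 member was called between tissues and 0 in BM (4 genes). The interaction was not run with a block, and it could not be fitted without the WT spleen sample.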
